A study of Mus musculus with 20 samples.

Results

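A set of 259 array probes was studied whose level was at least 2-fold lower after 4 days of culture than at the start, to a like extent under both tamoxifen schedules of the experiment. They were chosen from 42006 probe identifiers by measured values, the scanner's processed signals. A member had to be well above background on both day 0 arrays and have a day 4 level at least 1 log2 unit below day 0 under continued and under withdrawn tamoxifen. Its levels under those schedules on day 4 had to differ by less than 0.3 log2 units, as had those with and without tamoxifen on day 2. Of 26004 probes well above background on day 0, 882 were that much lower on day 4 in both schedules. The other 623 of these lay outside a similarity limit, 48 on day 4 alone, 272 on day 2 alone and 303 on both days.

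The cells were ES-ZERT #18, a single clone derived from the mouse embryonic stem (ES) cell line V6.5, which comes from a C57BL/6 x 129/Sv F1 hybrid. Every group carried the transgene pCAG-Zscan4-ERT2, driven by the broadly active CAG promoter, and grew as a monolayer on gelatin in medium with serum and LIF. Groups were sampled on day 0 (Day0), on day 1 with 200 nM tamoxifen (Day1 Tmx+) and without it (Day1 Tmx-), and on day 2 with tamoxifen on both days (Day2 Tmx++), on day 1 only (Day2 Tmx+-) or never (Day2 Tmx--). Later groups had tamoxifen on every day (Day3 Tmx+++, Day4 Tmx++++) or on day 1 only (Day3 Tmx+--, Day4 Tmx+---). No untreated group of day 3 or 4 was analysed here, so all late cells had met tamoxifen. Each of the 10 groups had 2 arrays, and whether those are separate cultures is not stated, so the p-values below reflect array-to-array spread that may be technical.

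Mouse ES cells keep the capacity to form all tissues of the body while LIF and serum hold back their differentiation. Zscan4 proteins carry zinc fingers and a SCAN domain, and their genes are active in early embryos and, briefly, in a minority of ES cells. ERT2 is an altered oestrogen receptor domain that keeps a fused protein out of action until tamoxifen binds it. Comparing schedules within a day asks what tamoxifen changes, and comparing days asks what changes over the time course.

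RNA of the cells was labelled with Cy3 and hybridised beside a Cy5-labelled common reference, a pool from 11 mouse cell lines mixed with RNA of 129 ES cells. A level below is the log2 ratio of sample over reference after background correction and loess normalization. Because loess removes each array's trend of ratio with brightness, a level of 0 means that a probe lay on that trend, not that both channels gave equal signal, and levels of different probes are not comparable as amounts. The files give no gene name or genome position for any probe, and none of the 259 members was found among the mouse gene identifiers, promoter windows or miRNA hairpins at hand. Members are therefore described by identifier and by their 60-base sequence, and the label ES cell could not be set against defining marker genes.

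The sequences that carry the results are printed as the array design gives them. The first 4 are members with distinct time courses. In order, they had the deepest day 4 decrease in the scanner's processed signals and the largest tested decrease under continued tamoxifen. The next had the largest tested decrease after withdrawal, and the last stayed up until day 3. These 4 have no capitals.
Z00007161-1: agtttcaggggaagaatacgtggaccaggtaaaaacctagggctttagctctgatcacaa
Z00076577-1: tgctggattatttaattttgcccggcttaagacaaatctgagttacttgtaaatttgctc
Z00003683-1: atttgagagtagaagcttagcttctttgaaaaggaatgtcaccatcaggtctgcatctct
Z00030315-1: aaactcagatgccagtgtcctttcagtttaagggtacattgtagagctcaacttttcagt
Next come 2 pairs of members that overlap on the same strand, with the shared run of 24 bases in the first pair and of 46 bases in the second in capitals.
Z00025925-1: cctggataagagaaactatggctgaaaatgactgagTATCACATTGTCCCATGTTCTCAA
Z00070376-1: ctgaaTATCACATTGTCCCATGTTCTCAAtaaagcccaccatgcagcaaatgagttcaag
Z00045284-1: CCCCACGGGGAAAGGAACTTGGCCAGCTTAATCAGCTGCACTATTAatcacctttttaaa
Z00074435-1: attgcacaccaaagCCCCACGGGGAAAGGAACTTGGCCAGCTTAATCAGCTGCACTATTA
The last pair is a member, printed first, and a probe that is no member and reads 55 of the same bases on the opposite strand, in capitals in both.
Z00034449-1: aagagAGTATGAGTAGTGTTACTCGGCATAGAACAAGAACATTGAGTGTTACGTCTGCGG
Z00031357-1: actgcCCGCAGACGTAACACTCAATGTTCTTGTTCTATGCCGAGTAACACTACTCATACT

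The sample channel detected between 26199 and 30070 probe identifiers per array, and the correlation between replicates ran from 0.9845 to 0.9954 over the 29414 tested probes. The 20 arrays lay on 5 slides scanned in 3 sessions. Slide 1 held Day0 and Day1 Tmx-, slide 2 Day1 Tmx+ and Day2 Tmx--, slide 3 Day2 Tmx++ and Day2 Tmx+-, slide 4 the day 3 groups and slide 5 the day 4 groups. Slides 1 to 3 shared a session, and slides 4 and 5 had one each. For day 3 and day 4 against earlier days, time in culture, slide and session cannot be told apart. Against Day0 and the untreated groups, exposure to tamoxifen on day 1 is confounded with these as well, while the tamoxifen groups of days 1 and 2 shared that exposure.

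The values that chose the members are a description only. On the scale of the rule, Agilent's processed signals centred on each array's median, Day4 Tmx++++ minus Day0 had a median of -1.23 over the members and reached -3.10, and Day4 Tmx+--- minus Day0 had a median of -1.28 and reached -2.89. Day4 Tmx++++ minus Day4 Tmx+--- ran from -0.29 to 0.30 with a median of 0.04, and Day2 Tmx++ minus Day2 Tmx-- from -0.30 to 0.29 with a median of -0.07. At the continued day 4 limit, Z00053216-1, Z00023958-1 and Z00036413-1 lay just inside at -1.001 to -1, and Z00005645-1, Z00039314-1 and Z00054884-1 just outside at -0.998 to -0.997. At the withdrawn limit, Z00030085-1, Z00031479-1 and Z00016402-1 lay inside at -1.003 to -1, and Z00058391-1, Z00031485-1 and Z00026112-1 outside at -0.996 to -0.994. The members nearest the similarity limits were Z00052675-1 at 0.298 on day 4 and Z00024910-1 at -0.299 on day 2, and the nearest probes beyond them were Z00059042-1 and Z00024619-1, both at -0.301.

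All 259 members passed the filter of the tests, since the rule asks for signal on day 0. Sample signal was well above background on all 20 arrays for 241 of them, and 0 members were saturated. On both arrays of a day 4 group, 243 members were well above background in Day4 Tmx++++ and 245 in Day4 Tmx+---. A further 10 and 8 members were above it on neither array of those groups, so that their day 4 levels are only bounds. The median sample signal over local background of the members was 3.47 and 3.53 on the Day4 Tmx++++ arrays and 3.41 and 3.52 on the Day4 Tmx+--- arrays, against 6.48 and 6.61 on the Day0 arrays.

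Over the whole course, the median member was higher on day 1 than on day 0, near day 0 on day 2, a little below on day 3 and well below on day 4. The median member level was 0.66 on day 0, 0.97 in Day1 Tmx+ and 0.95 in Day1 Tmx-. On day 2 it was 0.57 in Day2 Tmx++, 0.56 in Day2 Tmx+- and 0.61 in Day2 Tmx--. It was 0.38 in Day3 Tmx+++ and 0.39 in Day3 Tmx+--, and -0.25 in Day4 Tmx++++ and -0.27 in Day4 Tmx+---. The plot of changes by group shows the schedules of each day side by side. The rule itself fixed the closeness of Day4 Tmx++++ to Day4 Tmx+--- and of Day2 Tmx++ to Day2 Tmx--, and the distance of day 4 from day 0. The median level per array differed between replicates most in Day2 Tmx--, at 0.68 and 0.53. Day 0 levels of single members ran from -6.48 to 3.39. The lowest was Z00075103-1, chosen after its values were seen, whose levels on the other days were lower still.

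**Figure D1:**
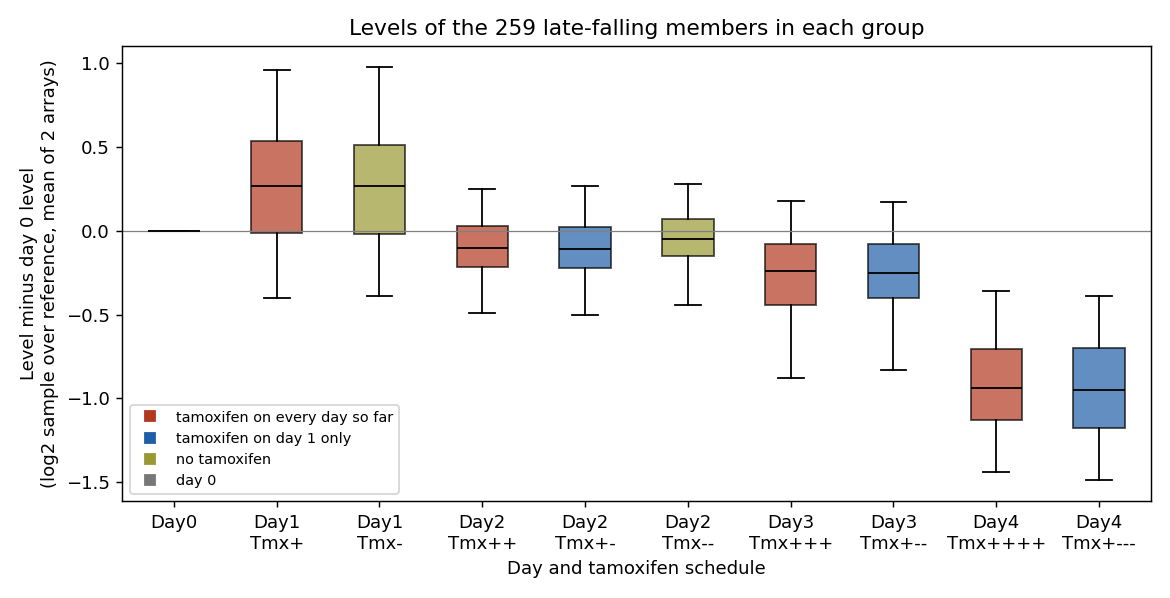
Level of each of the 259 members minus its day 0 level (log2 sample over reference, mean of 2 arrays), by day and tamoxifen schedule. Boxes span the quartiles, the line is the median and whiskers reach the 5th and 95th percentiles. Medians are 0.27 in both day 1 groups, -0.24 in Day3 Tmx+++, -0.25 in Day3 Tmx+--, -0.94 in Day4 Tmx++++ and -0.95 in Day4 Tmx+---.

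Relative to day 0, 191 members were higher in Day1 Tmx+ and 192 in Day1 Tmx-, with a median change of 0.27 in each group. By day 3, 214 members were below day 0 in Day3 Tmx+++ and 222 in Day3 Tmx+--. The median change from day 0 over all 29414 probes lay between -0.01 and 0.04 in every group. In the sample channel alone the median change of the members was -0.97 in Day4 Tmx++++ and -0.98 in Day4 Tmx+---. In the reference channel alone it lay between -0.06 and 0.01 in all later groups. On the loess-normalized scale, which compresses dim signals, 107 members were at least 2-fold below day 0 in Day4 Tmx++++ and 113 in Day4 Tmx+---, although the rule held all of them to that limit on its own scale. Because whole cultures were lysed, fewer cells of a type and less RNA per cell cannot be told apart.

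Most members took their largest step down between day 3 and day 4. This interval held the largest daily decrease of 172 members under continued and of 178 under withdrawn tamoxifen, as the bar chart of intervals shows. The interval was the same in both schedules for 213 members. Day4 Tmx++++ minus Day3 Tmx+++ had a median of -0.62, with 253 members lower and 248 with no overlap of the arrays. For Day4 Tmx+--- minus Day3 Tmx+-- the median was -0.63, with 250 members lower and 248 without overlap. Over all tested probes the median was 0.03 in each step, and array overlap was not counted there. The day 4 arrays entered the rule, so these counts carry no test. Of the day 4 change from day 0, a median of 30.4% was present on day 3 under continued and 29.2% under withdrawn tamoxifen.

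**Figure D2:**
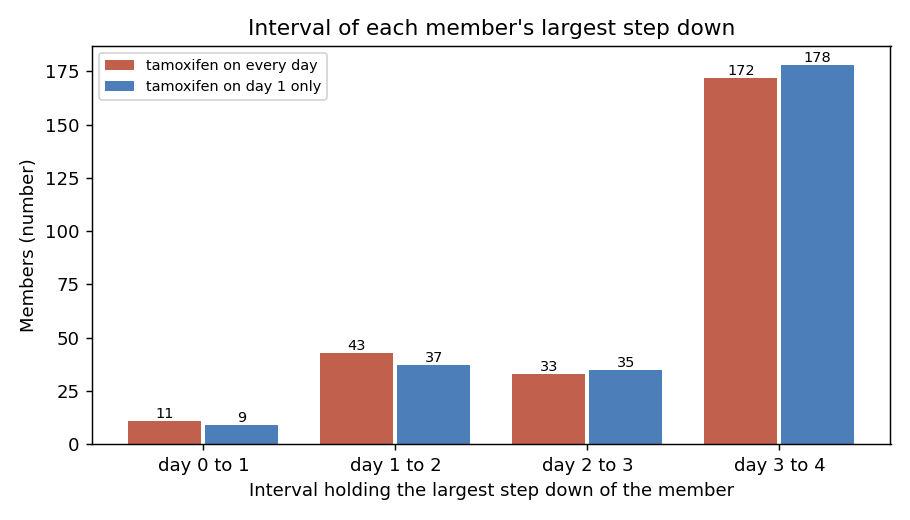
Number of members whose largest decrease between consecutive days lay in each interval, with tamoxifen on every day (left bars) or on day 1 only (right bars). The first interval uses Day1 Tmx+ in both schedules. The last interval holds 172 and 178 members, and day 1 to 2 holds 43 and 37.

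The shapes differed among members. A group of 177 was above day 0 in both day 1 groups, and 53 were below in both. The median change of the 53 from day 0 was -0.46 in Day3 Tmx+++ and -0.47 in Day3 Tmx+--, where the medians of the 177 were -0.17 and -0.20. On day 4 the sets lay together, at -1.01 for the 53 against -0.93 for the 177 in Day4 Tmx++++, and at -0.98 against -0.97 in Day4 Tmx+---. In both schedules, 13 members had at least 75% of their day 4 change on day 3, and 32 had none of it. A steady decline at each day from day 1 to day 4 was seen in 157 members under both schedules.

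The time course was tested on arrays that the rule did not use. The widest such span under continued tamoxifen sets Day3 Tmx+++ against Day1 Tmx+, on slides 4 and 2. Among the members 215 fell (83.0%) and 3 rose (1.16%), where 23.1% of all tested probes fell and 28.6% rose (limma, Benjamini-Hochberg adjusted p under 0.05 over 29414 probes). The median log2 change was -0.53 over the members and 0.02 over all probes, and 251 members had a negative change. A fall of at least 1.5-fold was seen in 114 members and of at least 2-fold in 26. Over all probes the 5th percentile of the log2 change was -0.533, which is less than a 1.5-fold fall. The other 623 late-falling probes had a similar share of falls, 504 (80.9%) with a median of -0.54.

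Z00076577-1 fell most, with levels of 0.34 and 0.53 in Day3 Tmx+++, against 2.25 and 2.12 in Day1 Tmx+. Its log2 change was -1.75 (SE 0.081, limma adjusted p = 2.3e-11), a 3.36-fold decrease, and the arrays of the groups were far apart. It stood at 0.56 and 0.46 in Day3 Tmx+--, so both schedules had reached the same range by day 3. On day 4 it had -0.47 and -0.61 in Day4 Tmx++++ and -0.60 and -0.52 in Day4 Tmx+---, against 1.2 and 1.25 on Day0.

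Z00060500-1 fell by 1.59 log2 units, to -0.06 and -0.17 in Day3 Tmx+++, against 1.5 and 1.46 in Day1 Tmx+ (limma adjusted p = 3.2e-11). Z00055409-1 had 0.39 and 0.55 in Day3 Tmx+++, against 2.03 and 2.09 in Day1 Tmx+, a change of -1.58 (SE 0.07). Z00012450-1 had 0.92 and 0.83 in Day3 Tmx+++, against 2.46 and 2.29 in Day1 Tmx+, a change of -1.5 (SE 0.066). None of these 3 had overlapping arrays between the groups. The other 6 of the 10 largest falls were Z00074634-1, Z00056671-1, Z00053049-1, Z00014831-1, Z00049314-1 and Z00003616-1, with changes from -1.48 to -1.40.

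Part of this span was a day 1 level above day 0. Over the members, the median change from day 0 was -0.24 in Day3 Tmx+++ and 0.27 in Day1 Tmx+. Z00049314-1 had 0.29 and 0.38 in Day3 Tmx+++, against 1.82 and 1.69 in Day1 Tmx+, while Day0 had 0.20 and 0.12. Its day 3 values lay above both Day0 values and its day 4 values below them, at -0.95 and -1.19 in Day4 Tmx++++ and -1.03 and -1.01 in Day4 Tmx+---. Z00053049-1 was also high on day 1 but lay below both Day0 values by day 3, with 0.78 and 0.72 in Day3 Tmx+++, against 2.24 and 2.15 in Day1 Tmx+ and 1.00 and 1.08 on Day0.

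After withdrawal, Day3 Tmx+-- was set against Day2 Tmx+-, on slides 4 and 3. It shares no array with the comparison above, but both day 3 groups lay on slide 4 and in the same scanning session. Here 86 members fell (33.2%) and 14 rose (5.41%), where 11.7% of all probes fell and 13.7% rose. The median log2 change was -0.14 over the members and 0.00 over all probes, and 19 members fell at least 1.5-fold. The 5th percentile over all probes was -0.3, less than a 1.5-fold fall. Of the other 623 late-falling probes, 181 fell (29.1%), with a median of -0.10. Of the 215 members that fell under continued tamoxifen, 83 also fell here, which is all but 3 of the 86. Those 215 are 83.0% of all members, so most of the 86 would be among them without any link. In neither comparison did 41 members fall, and the overlap was not tested. With every local background used as the scanner gave it, the fall was called for 30 members. Calls over all probes were not counted under that setting, so whether the members still exceed them is not known.

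Z00003683-1 fell most after withdrawal, with 0.20 and 0.10 in Day3 Tmx+--, against 1.16 and 1.08 in Day2 Tmx+-. Its log2 change was -0.97 (SE 0.08, limma adjusted p = 3.1e-07), a 1.96-fold decrease. All its earlier arrays lay between 1.04 and 1.38, with 1.28 and 1.29 on Day0, and on day 4 it had 0.19 and 0.29 in Day4 Tmx++++ and 0.26 and 0.26 in Day4 Tmx+---. Its decrease lay between day 2 and day 3.

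Z00076577-1 and Z00012450-1, named above, fell again over this step, by 0.90 and 0.81 log2 units. Z00060288-1 had 0.89 and 0.91 in Day3 Tmx+--, against 1.67 and 1.63 in Day2 Tmx+-, a change of -0.75 (SE 0.057, limma adjusted p = 1.5e-07). It had been lower on day 1, at 1.42 and 1.41 in Day1 Tmx+, than on Day0, at 1.82 and 1.90. Z00070376-1, Z00056671-1, Z00030678-1, Z00060324-1, Z00056181-1 and Z00038468-1 complete the 10 largest, with changes between -0.87 and -0.78. With local backgrounds as given, the calls of Z00070376-1 and Z00012450-1 were lost.

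**Figure D3:**
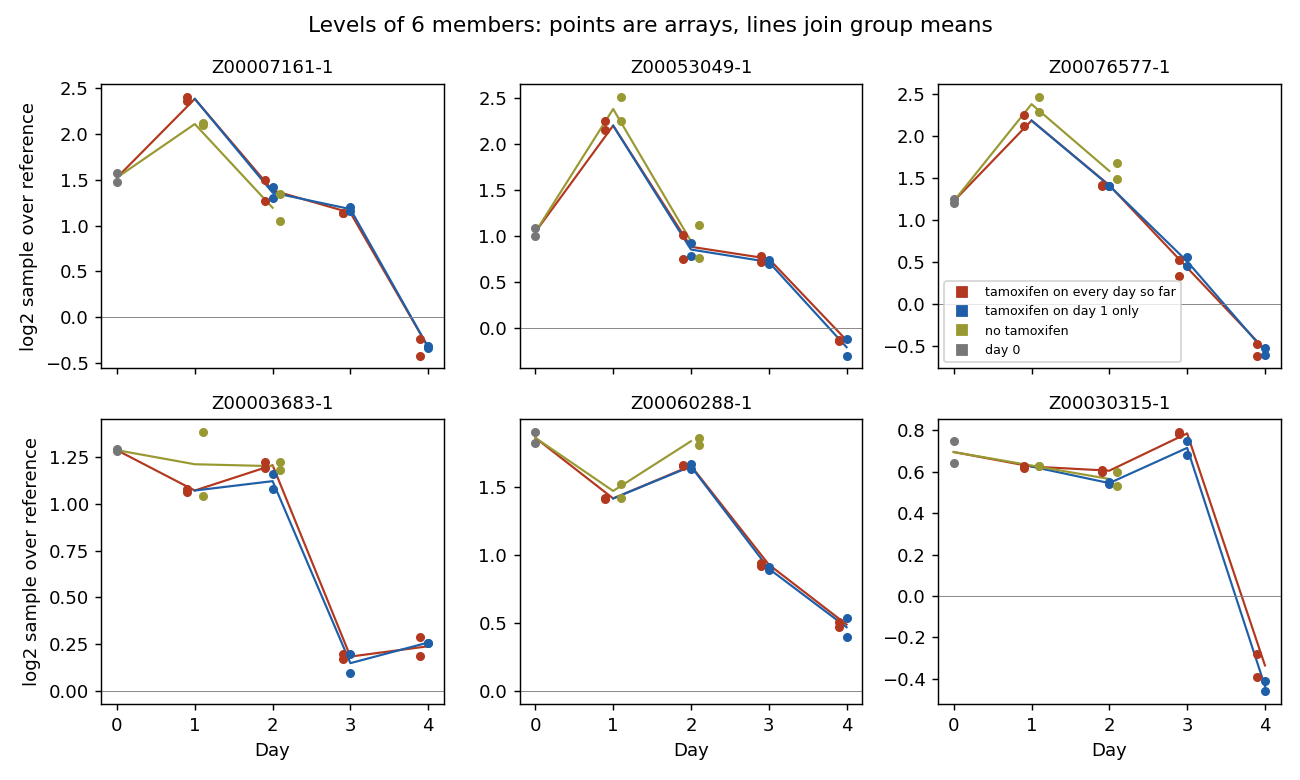
Levels (log2 sample over reference) of 6 members by day. Points are arrays, lines join group means, and the continued and withdrawn lines share the Day1 Tmx+ arrays. Z00007161-1, Z00053049-1 and Z00076577-1 peak on day 1, Z00003683-1 and Z00060288-1 step down between day 2 and 3, and Z00030315-1 stays between 0.53 and 0.79 until day 3 and is at -0.28 to -0.46 on day 4.

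The first day after withdrawal, Day2 Tmx+- against Day1 Tmx+, shares arrays with both comparisons above. Its groups lay on slides 3 and 2, so day, withdrawal and slide cannot be told apart. In this comparison 182 members fell (70.3%) and 8 rose (3.09%), where 18.2% of all probes fell and 21.4% rose. The median change was -0.35, and 58 members fell at least 1.5-fold. The 5th percentile over all probes was -0.418, less than a 1.5-fold fall. Of the other 623 late-falling probes, 425 fell (68.2%), with a median of -0.36. Z00053049-1 fell by 1.34 log2 units (SE 0.11, limma adjusted p = 6.1e-08), to 0.92 and 0.78 in Day2 Tmx+-, against 2.24 and 2.15 in Day1 Tmx+. Its levels were 0.75 and 1.01 in Day2 Tmx++ and 1.12 and 0.76 in Day2 Tmx--, groups whose likeness the rule required of every member. With local backgrounds as given, 99 members were called lower, and calls over all probes were not counted under that setting.

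A few members went the other way before day 4. Z00016353-1 rose in Day3 Tmx+++, to -1.92 and -1.87, against -2.29 and -2.32 in Day1 Tmx+, a log2 change of 0.40 (SE 0.077, limma adjusted p = 0.00028). Z00053427-1 and Z00030315-1 rose in the same comparison by 0.22 and 0.16 log2 units, with adjusted p of 0.045 and 0.023. The call of Z00053427-1 was lost without the second Day3 Tmx+++ array or the first Day1 Tmx+ array, and that of Z00030315-1 whichever of the 4 arrays was left out. With the sample channel alone Z00030315-1 changed by -0.05.

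After withdrawal, Z00064524-1 rose to 0.83 and 0.83 in Day3 Tmx+--, against 0.35 and 0.40 in Day2 Tmx+-, a change of 0.46 (SE 0.083, limma adjusted p = 7e-04). Z00030904-1, Z00006542-1, Z00061071-1 and Z00053427-1 rose by 0.40, 0.37, 0.32 and 0.32. All 5 were then below their day 0 level on day 4, as the rule requires. Z00064524-1 had -0.66 and -0.80 in Day4 Tmx++++ and -0.53 and -0.56 in Day4 Tmx+---, against 0.79 and 0.78 on Day0.

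Continued and withdrawn tamoxifen were compared on day 3, within slide 4, to ask whether the members were also alike on the day the rule left out. In Day3 Tmx+++ minus Day3 Tmx+--, 0 members were called lower and 0 higher by limma, where 0.367% of all probes were lower and 0.153% higher. At an unadjusted p under 0.05, 7 members were lower and 9 higher, a count not made over all probes. The differences ran from -0.24 to 0.25 with a median of 0.00. All tested probes were nearly as alike, with 5th and 95th percentiles of -0.147 and 0.151, against -0.122 and 0.139 over the members. The 95% confidence interval of the difference lay within 1.5-fold either way for 258 of the 259 members, also not counted over all probes. The exception was Z00016402-1, singled out for this width, with an interval from -0.59 to 0.72. Among the other 623 late-falling probes, 34 were called lower (5.46%). Z00076577-1 differed by -0.08 (SE 0.081) and Z00003683-1 by 0.04 (SE 0.08), both within their error.

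Tamoxifen against none was compared on day 1, on slides 2 and 1, so tamoxifen and slide cannot be told apart here. In Day1 Tmx+ minus Day1 Tmx-, 14 members fell (5.41%) and 25 rose (9.65%), where 9.39% of all probes fell and 9.34% rose. The member shares were thus near or under the background, and the median change was -0.01. Among the other 623 late-falling probes, 334 fell (53.6%), with a median of -0.25. The members were chosen for likeness with and without tamoxifen on day 2, and no test was made between the lists.

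Z00025578-1 rose most on day 1, with 2.32 and 2.27 in Day1 Tmx+, against 1.52 and 1.69 in Day1 Tmx-, a change of 0.69 (SE 0.12, limma adjusted p = 0.00032). Z00025900-1 had 1.74 and 1.76 in Day1 Tmx+, against 1.16 and 1.15 in Day1 Tmx-, a change of 0.60 (SE 0.071). Z00056181-1, Z00073950-1 and Z00025023-1 rose by 0.47, 0.44 and 0.44. For all of these named risers the arrays of the groups did not overlap.

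Z00028045-1 fell most, with 1.24 and 1.3 in Day1 Tmx+, against 1.69 and 1.80 in Day1 Tmx-, a change of -0.48 (SE 0.083, limma adjusted p = 0.00048). Z00076687-1, Z00062900-1, Z00064590-1 and Z00036223-1 fell by 0.39, 0.36, 0.36 and 0.35. With local backgrounds as given, the first 4 of these 5 turned in sign, to changes of 0.20, 0.13, 0.03 and 0.33. The day 1 counts also depended on single arrays. The number that fell was 32 without the first Day1 Tmx- array and 7 without the second, and 8 and 6 without the first and second Day1 Tmx+ array. The number that rose was 14 without the second Day1 Tmx+ array.

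**Figure D4:**
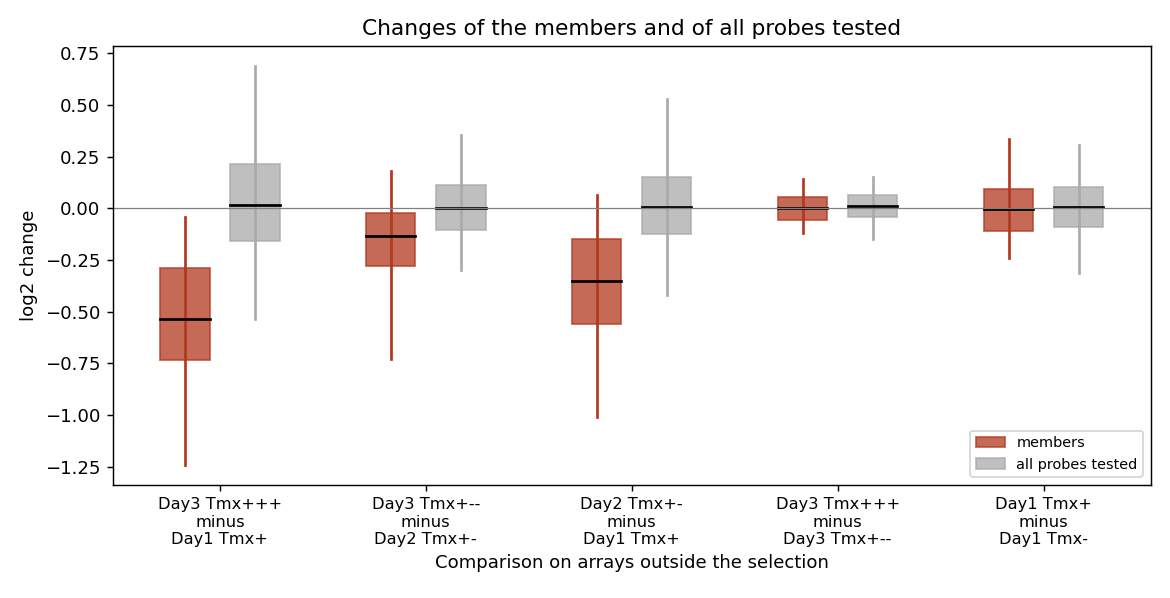
Log2 changes of the 259 members (left of each pair) and of all 29414 probes tested (right) in the 5 comparisons on arrays outside the selection. Boxes span the quartiles with the median as a line, and thin lines reach the 5th and 95th percentiles. Member medians are -0.53, -0.14 and -0.35 in the first 3 comparisons, and 0.00 and -0.01 in the last 2.

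The deepest day 4 decreases from day 0, which the rule selected for, are given as a description. They were ranked in the scanner's processed signals, while the levels printed here are on the loess scale, where the order differs. The largest decrease of any member on the loess scale was -2.27 in Day4 Tmx++++ and -2.08 in Day4 Tmx+---. Z00007161-1 had -0.42 and -0.24 in Day4 Tmx++++ and -0.34 and -0.32 in Day4 Tmx+---, against 1.48 and 1.57 on Day0. It had been highest on day 1, at 2.36 and 2.41 in Day1 Tmx+ and 2.10 and 2.12 in Day1 Tmx-. On the arrays outside the rule it fell by 1.25 log2 units in Day3 Tmx+++ against Day1 Tmx+ (limma adjusted p = 4.4e-09), and its change in Day3 Tmx+-- against Day2 Tmx+- was -0.18 (adjusted p = 0.15).

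Z00072364-1 had -0.23 and -0.13 in Day4 Tmx++++ and -0.22 and -0.14 in Day4 Tmx+---, against 1.09 and 1.08 on Day0. Z00050996-1 had levels below 0 on days 3 and 4, at -1.99 and -2.10 in Day4 Tmx++++ and -2.04 and -2.11 in Day4 Tmx+---, against -0.44 and -0.49 on Day0. Z00056857-1, Z00055409-1, Z00030099-1, Z00053049-1 and Z00060500-1 also belong to the 10 deepest decreases on the scale of the rule. On the loess scale Z00030099-1 had 0.20 and 0.02 in Day4 Tmx++++ and 0.00 and 0.08 in Day4 Tmx+---. Its Day0 levels were 1.02 and 0.89, so it was not among the deepest on that scale. The remaining 2, Z00021885-1 and Z00058182-1, were not well above background on any day 4 array, and no fold is given for them.

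Overlapping probes measured some sequences more than once. Of 7 same-strand overlaps of at least 20 bases between a member and another probe, 4 were between members. In the opening pair that shares 24 bases, Z00025925-1 changed by -0.91 and Z00070376-1 by -0.99 in Day3 Tmx+++ against Day1 Tmx+, with limma adjusted p of 1.2e-08 and 2.7e-08. Their levels in Day3 Tmx+++ were 1.08 and 1.12 for Z00025925-1 and 0.93 and 0.94 for Z00070376-1. The pair that shares 46 bases, Z00045284-1 and Z00074435-1, fell by 0.19 and 0.29 log2 units in the same comparison (adjusted p = 0.036 and 0.0018), to 0.56 and 0.63 and to 0.59 and 0.53 in Day3 Tmx+++. In Day2 Tmx+- against Day1 Tmx+ their calls differed, with changes of -0.06 (adjusted p = 0.57) for Z00045284-1 and -0.26 (adjusted p = 0.0058) for Z00074435-1. Both were between -0.26 and -0.41 on all day 4 arrays.

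The other 2 pairs of members gave like values within each pair. In Day3 Tmx+++ against Day1 Tmx+, Z00052783-1 fell by 0.63 and Z00074721-1 by 0.64 log2 units (limma adjusted p = 4.6e-08 and 9.1e-08). Neither Z00011683-1 nor Z00035232-1 was called in that comparison, with changes of -0.17 (adjusted p = 0.23) and -0.16 (adjusted p = 0.27). Z00060087-1, which shares 34 bases with the member Z00071757-1 and is no member, had no sample signal well above background on any array. The remaining same-strand partners outside the members, Z00075833-1 and Z00026112-1, were detected. They fell by 0.64 and 0.44 log2 units in Day3 Tmx+++ against Day1 Tmx+ (limma adjusted p = 9.7e-08 and 0.00036). The members they overlap, Z00073950-1 and Z00074476-1, fell by 0.63 and 0.72. Overlapping members share sequence and are not counted here as separate evidence, and whether they report the same transcript was not tested.

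There were 2 pairs on opposite strands. In that of the member Z00052925-1 and Z00031673-1, the latter had no sample signal well above background on any array. In the printed pair, the member Z00034449-1 fell by 0.49 log2 units in Day3 Tmx+++ against Day1 Tmx+ (SE 0.067, limma adjusted p = 8.8e-06). Its partner Z00031357-1, which reads the other strand, changed by -0.11 (adjusted p = 0.36), and the difference between the probes was not tested. The partner was dim, with mean sample signals of 71 to 96, against 1592 to 6919 for the member. Folds of dim probes are understated here, so the flat course of the partner is no sign of an unchanged strand. On day 4 the member had -0.05 and -0.18 in Day4 Tmx++++ and -0.19 and -0.27 in Day4 Tmx+---, against 1.00 and 1.14 on Day0. The partner had 0.16 and 0.13 in Day4 Tmx++++ and -0.08 and 0.14 in Day4 Tmx+---, against 0.06 and 0.28 on Day0.

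High levels in Day1 Tmx- were frequent among the late-falling probes, members or not. The sets were filtered in unlike ways, so the shares below are a description only. Late-falling probes had to be well above background on both day 0 arrays and to fall from there. Tested probes needed such signal on both arrays of any group. In Day1 Tmx-, a group the rule did not use, 120 members (46.3%) had a level above 1, against 36.8% of the other 623 late-falling probes and 7.23% of all tested probes. A level below -1 was found in 10 members (3.86%), against 6.74% of the other 623 and 13.8% of all tested probes. Median GC content of the printed strand was 43.3% in the members and 45% in all tested probes. The polyadenylation signal AATAAA was found in 17 members (6.56%) as printed and in 5 (1.93%) on the other strand, against 7.5% and 3.06% of all tested probes. These are descriptions of 60-base windows.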

How the data were processed

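Levels came from 20 Agilent 2-colour arrays, with the sample in Cy3 and the common reference in Cy5 on each. Per the file headers, Agilent Feature Extraction 9.5.1.1 wrote the deposited linear intensity values. The deposited series matrix holds values on a log10 scale for 25030 probes, correlated at 0.9935 to 0.9973 with log10 of the processed sample signal. Its columns had medians of 2.305 to 2.336, and the centring and normalization behind it are not stated in these sources. It served as an alternative.

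Mean signals were corrected with normexp (offset 50), after 12 local backgrounds over 10 times the median of their channel had been replaced by the array's median, a step chosen after seeing the data. Loess within arrays followed, outlier spots were set to missing and spots of a probe were averaged. Offset and normexp understate folds of dim probes. Probes well above background in the sample channel on both arrays of a group were kept (29414). All arrays entered a single limma 3.58.1 fit in R 4.3.3, with a mean per group and 10 residual degrees of freedom, tested on simulated data, with Benjamini-Hochberg adjusted p under 0.05 as the call. Dyes were never exchanged, so dye effects cancel only between groups. With 2 arrays per group, their number limits the precision. Each group lay on 1 slide, so slide could not be fitted.

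Members, comparisons and lists were chosen with earlier results of these data known. Named probes were the 10 deepest day 4 decreases from day 0 on the scale of the rule. The 10 largest falls without array overlap in each of the 2 main time comparisons were named as well. So were up to 5 each way for day 1, members that rose, and neighbours of the limits. The gene lists and cell type markers planned for this work could not be applied, since the files pair no probe with a gene.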

Additional observations from a re-analysis of the deposited data

How the results depend on the processing

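Counts of members called lower in Day3 Tmx+++ against Day1 Tmx+ (215), Day3 Tmx+-- against Day2 Tmx+- (86) and Day2 Tmx+- against Day1 Tmx+ (182) lay at 201 to 209, 59 to 73 and 162 to 166 when single arrays were left out. The series matrix, which holds 161 of the members, gave 139, 55 and 118. A limit of 1.5-fold gave 114, 19 and 58. Local backgrounds as given by the scanner left 30 in the second and 99 in the third comparison. Counts under the alternatives were made over the members only, with no share over all probes beside them. For Day3 Tmx+++ against Day3 Tmx+--, 0 lower calls were made under every alternative run, and higher calls ranged from 0 to 1 when single arrays were left out, the 1 being without the first Day3 Tmx+++ array. In Day1 Tmx+ against Day1 Tmx-, the 14 lower calls became 5 with Agilent processed signals, 8 with backgrounds as given, 8 with median centring, 7 on the series matrix, 4 from the compared arrays alone, 0 at 1.5-fold, and 6 to 32 when single arrays were left out. The 25 higher calls became 15 with processed signals, 41 with backgrounds as given, 16 on the series matrix, 11 from the compared arrays alone, 2 at 1.5-fold, and 14 to 30 when single arrays were left out. With backgrounds as given, Z00028045-1, Z00076687-1, Z00062900-1 and Z00064590-1 changed by 0.20, 0.13, 0.03 and 0.33 in that comparison, and with the sample channel alone Z00030315-1 changed by -0.05 in Day3 Tmx+++ against Day1 Tmx+. Of 522 alternatives run for 38 named probe results, 489 kept direction and call, 28 lost the call and these 5 turned. The cause of these shifts was not tested, apart from fewer members on the series matrix and a stricter call at 1.5-fold.

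The replicate block gave 215, 87 and 182 lower calls in the time comparisons, 0 on day 3 between schedules, and 13 lower and 24 higher on day 1. Deviations of same-numbered arrays correlated at -0.29 to 0.28 over 45 pairs of groups. Whether same-numbered arrays share more than a number cannot be told from these values. The number of members was 37 with a day 4 limit of -1.5, 579 with -0.8, 160 with a similarity limit of 0.2, 319 with 0.4 and 110 with the rule on normexp and loess values, 95 of them shared. An alternative added after seeing the data kept the 241 members well above background on all arrays and gave 206, 82 and 175 lower calls.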
